A study of Mus musculus with 8 samples.

Results

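The transcription factor p53, encoded by Trp53, was followed in cultured mouse keratinocytes (KCs) together with genes known as its regulators or transcriptional targets, 37 genes in all. They were taken by symbol from the deposited gene tables. All 37 were found among the 41457 genes listed, and all 37 passed the filter on low read numbers that left 12590 genes for testing. The KCs came from tail epidermis of adult C57BL/6 mice, genotype Wildtype, and were left untreated. They grew in serum-free KC medium with low Ca++ and were split near confluence. One group of 4 samples was cultured for 1 week and the other group of 4 for 3 weeks. The samples share strain, genotype and medium, and the groups differ in the time of culture and in part in the KC preparation. By the deposited names, preparations 46, 49 and 90 occur at both times, 47 only at 1 week and 57 only at 3 weeks. The labels do not say whether the replicates came from separate animals. The p-values set the difference between the times against the spread between these samples. The paper states that the same batches were cultured for both times, while the main test takes the samples as unpaired. The comparison asks how RNA levels of KCs change between an early and a late culture.

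p53 is held at low protein levels in unstressed cells by MDM2, an E3 ubiquitin ligase that marks it for degradation, and by the related protein MDM4. DNA damage and other stresses release p53, mostly through kinases that modify the protein, so that its activity need not follow the level of its RNA. Active p53 binds DNA and induces genes for cell cycle arrest, cell death, DNA repair and metabolic adaptation. Mdm2 is itself a target, which closes a negative feedback loop. In epidermis the related factor p63 is the lineage factor of basal KCs, and it binds DNA motifs much like those of p53.

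A p53 response element is made of a pair of 10-base decamers, each with a fixed C and a fixed G around a core of A or T bases. RefSeq promoter windows (GRCm38.p6, from 250 bases before to 50 after a transcription start) were present for 30 of the 37 genes. No window was used for Ddb2, Perp, Rrm2b, Tnfrsf10b, Trp53inp1, Xpc and Zmat3. A pair of adjacent decamers with at most 2 mismatches over its 20 bases, the C and G of each decamer kept, was found in the windows of 2 of the 30 genes, Ccng1 and Rps27l. Over all 27018 genes with a window, 0.392% held such a pair. It is given here for these genes and, for comparison, for Cdkn1a, the p21 gene, with the 20 bases of the pair in capitals.

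Ccng1: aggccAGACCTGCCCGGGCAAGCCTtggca

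Rps27l: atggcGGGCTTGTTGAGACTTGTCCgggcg

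Cdkn1a: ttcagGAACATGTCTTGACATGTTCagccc

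Each of the 3 pairs had 1 mismatch. The Ccng1 pair lies at chr11:40755462-40755481 on the minus strand, with its first base at position -195 from the transcription start and outside the gene as deposited. The Rps27l pair lies at chr9:66946296-66946315 on the plus strand, at -117 from a downstream start of that gene and so within its deposited span. The Cdkn1a pair lies at chr17:29090928-29090947 on the plus strand, at -51. A single decamer without mismatch, searched on both strands, was found in windows of 10 of the 30 genes (33.3%), against 9.56% of all genes with a window. Neither Trp53 nor its inhibitor Mdm2 had a pair within the limit. The best adjacent pair had 3 mismatches in the window of Trp53 and 9 in that of Mdm2. Their single decamers are shown in capitals.

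Trp53: cggaaGGACTTGCCCttact

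Mdm2: gatagGAACTTGCCTagcga

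The Trp53 decamer lies at chr11:69580284-69580293 on the plus strand, at -75. The Mdm2 decamer lies at chr10:117710935-117710944 on the minus strand, at -186. The other genes with a decamer were Ccng1, Rps27l, Sesn1, Ei24, Aen, Polk, Gadd45a and Ppm1d. A match describes these letters only, and binding of p53 was not measured. Of the 10 genes with a decamer, 2 had a higher RNA level at 3 weeks by the test described next, and of the 20 with a window and no decamer, 6 had a higher and 1 a lower level. The called shares of 20% and 35% lie beside 32.8% of all tested genes. The median log2 fold changes of these groups were 0.18 and 0.16.

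The libraries held 13896807 to 20026084 exon reads at 1 week and 14096649 to 18127283 at 3 weeks. The KC keratin gene Krt5 was at 1938 to 6384 RPKM (exon reads scaled to the exon length in kilobases and to the mapped reads of the library) and Krt14 at 4465 to 7628 RPKM over the 8 samples. The summed KC markers, nearly all Krt5 and Krt14, lay at 12405 to 14644 RPKM at 1 week and at 7403 to 8585 at 3 weeks. Of the single markers in the list, Krt5, Itga6 and Trp63 were lower at 3 weeks without overlap, while Krt14, Krt15, Cdh1, Itgb4 and Col17a1 overlapped between the times. The summed markers of other cells were far below the KC sum, though not below each single KC marker, such as Krt15. Summed fibroblast markers were at 4.00 to 6.98 and 2.84 to 6.14 RPKM, melanocyte markers at 3.54 to 21.4 and 1.64 to 5.94, immune markers, mostly Cd68, at 15.1 to 20.7 and 7.47 to 13.4, and smooth muscle markers, mostly Cnn1, at 1.01 to 2.99 and 11.8 to 31.2. The smooth muscle sum was thus higher in every late sample. Summed markers of differentiated KCs were at 3.96 to 26.7 and 3.86 to 13.6 RPKM, highest in 1 week replicates 3 and 4, and those of Merkel cells at 0 to 0.0361 and 0.283 to 0.529 RPKM, without overlap. The Merkel sums rest on few reads, at most 19 of Krt20 in any 1 sample. The Langerhans cell marker Cd207 and the T cell marker Trdc had 0 reads in all 8 samples. In 3 weeks replicate 3, genes of mitochondrial DNA took 13.3% of the exon reads, against 2.19% to 4.43% in the other samples. The part of the marker differences in the results was not tested, and in bulk RNA fewer cells of a type and less RNA per cell cannot be told apart.

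At 3 weeks, 11 of the 37 genes had a higher RNA level than at 1 week and 1 had a lower level, by edgeR's quasi-likelihood test on exon reads at an adjusted p under 0.05. The higher genes were Mdm2, Ccng1, Ccng2, Fas, Trp53inp1, Zmat3, Tnfrsf10b, Ddit4, Rprm, Ak1 and Apaf1, and the lower gene was Dram1. The 12 genes make up 32.4% of the 37, and 32.8% of all 12590 tested genes were called, so that the share of changed genes was near the background. Past a log2 fold change of 1 in size stood Mdm2, Ccng2, Fas, Rprm and Ak1 on the higher side, where 7.28% of all tested genes were so called, and Dram1 on the lower side, with 8.08% of all tested genes. Whatever the size, 15.7% of all tested genes were called higher and 17.0% lower, against 29.7% and 2.7% of the 37. The log2 fold change was above 0 for 26 of the 37 genes and below 0 for 11, with a median of 0.20, where the median over all tested genes was 0.03. The single changes ran from -1.91 for Gdf15, which missed the threshold, to 1.75 for Rprm.

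The balance of higher and lower genes differed between edgeR on reads and limma on RPKM, which differ in both the scale and the test. On log2(RPKM + 0.1) the median of all tested genes lay at -0.16, limma called 29.9% of the changed genes higher where edgeR called 48.0% higher, and the members counted 6 higher and 2 lower. By limma that was 16.2% and 5.41% of the members, beside 10.3% and 24.0% of all tested genes. On RPKM alone, the 4 samples of each time did not overlap for 7 genes that were higher at 3 weeks (Mdm2, Ccng1, Ccng2, Trp53inp1, Ddit4, Rprm and Ak1) and for 2 that were lower (Trp53 and Dram1). Over all tested genes, 10.8% were without overlap and higher and 26.2% without overlap and lower. Names of the deposited tables give 3 KC preparations that occur at both times, and within these, with the preparation as a block, 4 members were called higher (Mdm2, Ccng2, Tnfrsf10b and Ak1) and 1 lower (Dram1). In that analysis 10.8% of the members and 10.4% of all tested genes were called higher, so that the share of higher members was at the background. Mdm2, Ccng2, Ak1 and Dram1 kept their call in all 20 alternative analyses. With genes of mitochondrial DNA removed, an alternative chosen after seeing the data, the members counted 11 higher and 1 lower. Leaving out single samples moved the count of higher members to 5 without 1 week replicate 4 and to 7 without each of the other 1-week samples. These are 13.5% and 18.9% of the members, where the share of all tested genes called higher also fell, to 10.8% without 1 week replicate 4 and to 10.8%, 12.1% and 12.3% without replicates 1, 2 and 3. It moved the count of lower members to 2 without 1 week replicate 3 and to 5 without 3 weeks replicate 4.

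**Figure D1:**
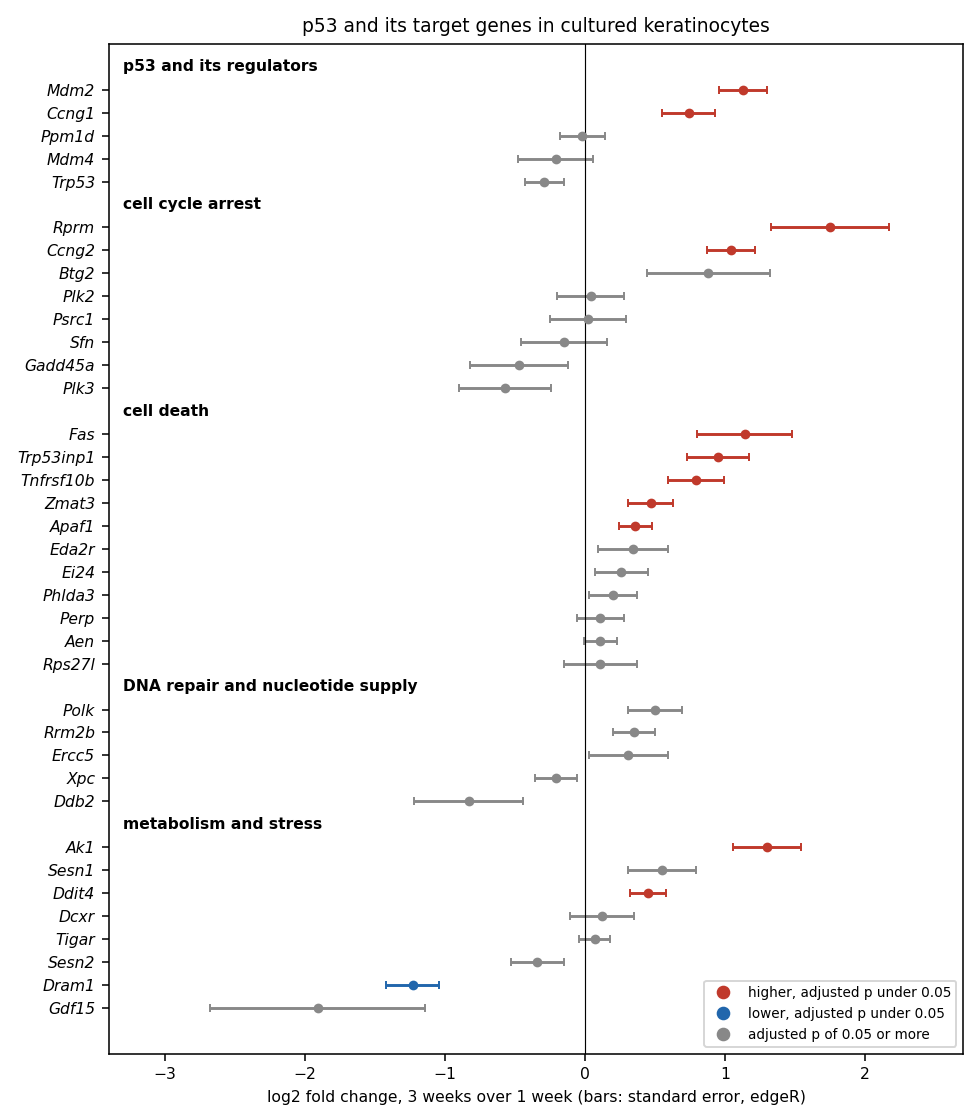
Log2 fold change of RNA level at 3 weeks over 1 week for the 37 genes, grouped by role on the vertical axis, with bars for the standard error from edgeR and colours for the call. Rprm stands at 1.75 and Ak1 at 1.30 on the right, Dram1 at -1.23 is the called gene on the left, and the 11 genes of cell death lie to the right of 0 in this fit, while Perp, Aen and Rps27l lie below 0 on log2(RPKM + 0.1) and Perp, Ei24 and Rps27l in the preparation block.

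The levels themselves covered a wide range. By mean RPKM, which is per exon length, 7 genes were at 100 or above at both times: Sfn, Perp, Ccng1, Rps27l, Plk2, Phlda3 and Ddit4. A further 12 genes at 1 week and 13 at 3 weeks lay from 10 to under 100 RPKM, and 17 and 15 genes from 1 to under 10. Rprm was under 1 RPKM at both times and Gdf15 at 3 weeks. In the order of mean RPKM from the highest, Mdm2 moved from place 15 to place 8, Ak1 from 16 to 11, Trp53 from 10 to 15 and Dram1 from 22 to 29.

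Among p53 and its regulators, RNA of the inhibitor Mdm2 rose and that of Trp53 did not pass the test. Trp53 (ENSMUSG00000059552, GRCm38 chr11:69580359-69591873, plus strand) had 37.9, 38.8, 39.3 and 35.8 RPKM in replicates 1 to 4 at 1 week and 31.7, 32.2, 25.0 and 22.5 RPKM at 3 weeks. Every 3-week sample was below every 1-week sample on this scale. The same order held after TMM normalization of the reads, which corrects for the composition of the library. On these reads the log2 fold change was -0.29 ± 0.14 (SE, edgeR adjusted p = 0.137). On log2(RPKM + 0.1) it was -0.46, with a limma adjusted p of 0.0403, an analysis that changed both the scale and the test.

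Mdm2 (ENSMUSG00000020184, chr10:117688875-117710758, minus strand) had 27.2, 29.0, 23.6 and 17.4 RPKM at 1 week and 43.9, 47.0, 50.2 and 47.6 RPKM at 3 weeks. The groups lay far apart, and the 3-week samples were closer to each other than the 1-week samples. The mean went from 24.3 ± 5.10 to 47.2 ± 2.58 RPKM (SD, n = 4), and the log2 fold change was 1.13 ± 0.17 (SE, edgeR adjusted p = 0.00170). It ran from 0.99 to 1.21 when each sample in turn was left out.

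Mdm4, which binds p53 and masks its activation domain without degrading it alone, had 2.43, 2.85, 2.37 and 2.49 RPKM at 1 week and 1.80, 1.46, 1.22 and 3.44 RPKM at 3 weeks. Replicate 4 at 3 weeks was the highest of all 8 samples and the other 3 replicates of that time were below all 1-week samples. The log2 fold change of Mdm4 was -0.21 ± 0.27 (SE, edgeR adjusted p = 0.585), and without 3 weeks replicate 4 it was -0.58 (edgeR adjusted p = 0.0111). Ppm1d, the phosphatase WIP1 that dephosphorylates p53 and its kinases, lay at 2.81 to 4.18 RPKM at 1 week and at 2.81 to 3.65 at 3 weeks, and the log2 fold change was -0.02 ± 0.16.

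Ccng1, a direct p53 target whose product cyclin G1 recruits phosphatase 2A to MDM2, had 258, 217, 233 and 190 RPKM at 1 week and 282, 329, 408 and 311 RPKM at 3 weeks. The lowest 3-week sample lay above the highest 1-week sample. Reads of Ccng1 gave a log2 fold change of 0.74 ± 0.19 (SE, edgeR adjusted p = 0.0175). The call was lost without 1 week replicate 2 (edgeR adjusted p = 0.0518) or without 1 week replicate 4 (edgeR adjusted p = 0.0582), and in the preparation block (edgeR adjusted p = 0.114) and in a replicate block, by the numbers of the labels (edgeR adjusted p = 0.0508). Of the 5 genes in this group, 2 rose and 3 did not pass the test, where 15.7% of all tested genes rose, and the median log2 fold change was -0.02.

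**Figure D2:**
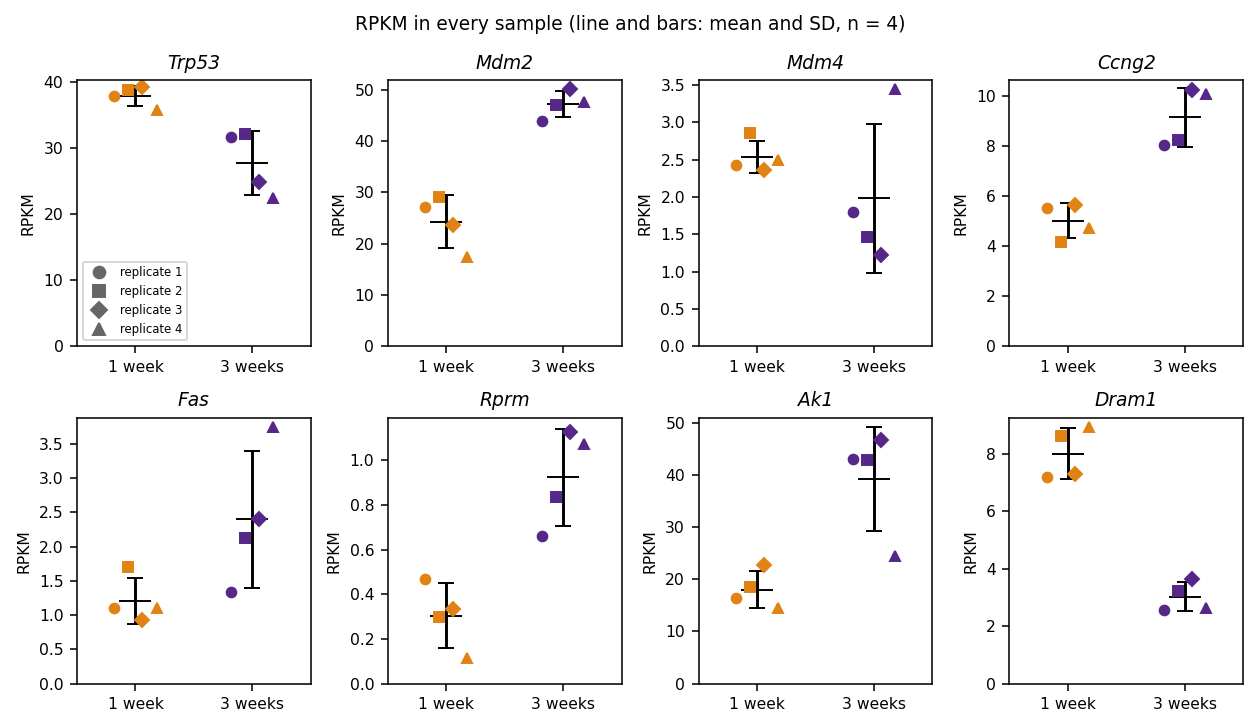
RPKM of single samples at 1 week and 3 weeks for Trp53 and for genes of its network, 1 panel per gene with its own axis from 0, points for the 4 replicates of each time and a line for the mean with its SD. Mdm2 rose from a mean of 24.3 to 47.2 RPKM while Dram1 fell from 8.01 to 3.02 RPKM, and neither shows overlap between the times.

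Ratios of members within a sample do not depend on the scaling between libraries, and 5 of them were compared between the times with an exact permutation test (two-sided, 70 arrangements), whose smallest possible p is 0.0286. The ratio of Mdm2 to Trp53 RPKM was 0.717, 0.748, 0.600 and 0.487 at 1 week and 1.39, 1.46, 2.01 and 2.12 at 3 weeks. Mdm2 was thus below Trp53 in each 1-week sample and above it in each 3-week sample. The mean log2 ratio went from -0.67 ± 0.28 to 0.78 ± 0.31 (SD, n = 4). Its exact permutation p was 0.0286, adjusted over the 5 ratios 0.0357. In RPKM, Mdm2 alone was higher and Trp53 alone was lower at 3 weeks without overlap. Their ratio therefore had to separate, and its p adds nothing to those values.

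The ratio of Mdm2 to Mdm4 was 11.2, 10.2, 9.96 and 6.99 at 1 week and 24.4, 32.1, 41.1 and 13.8 at 3 weeks. It was higher in all 4 late samples, least so in replicate 4, and the mean log2 ratio differed by 1.45 with the same exact permutation p of 0.0286. Sesn1 and Sesn2, the related sestrins that restrain mTORC1, shifted against each other. Their ratio ran from 0.0610 to 0.112 at 1 week and from 0.143 to 0.217 at 3 weeks, a log2 difference of 0.90 (exact permutation p = 0.0286).

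The ratio of Ccng1 to Ccng2 ran from 40.2 to 52.1 at 1 week and from 30.9 to 40.0 at 3 weeks, a log2 difference of -0.31 (exact permutation p = 0.0286). The gap between the groups was small, and with all reads of the gene, introns included, the log2 difference of -0.30 had an exact permutation p of 0.0857. Plk2 to Plk3, a pair of polo-like kinases, went from 2.23, 2.35, 3.07 and 2.41 to 4.86, 4.12, 4.14 and 2.90. The groups overlapped, and the log2 difference of 0.66 had an exact permutation p of 0.0571, which misses the threshold. The test takes the samples as unpaired. Within the 3 preparations present at both times, the log2 ratio of Plk2 to Plk3 differed by 1.12, 0.42 and 0.27, and that of Mdm2 to Trp53 by 0.96, 1.28 and 2.12. The ratios of Mdm2 to Mdm4 and of Sesn1 to Sesn2 were also higher at 3 weeks in each of these preparations, and that of Ccng1 to Ccng2 was lower in each, by -0.04 at the least. With 3 pairs no exact test can reach the threshold.

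**Figure D3:**
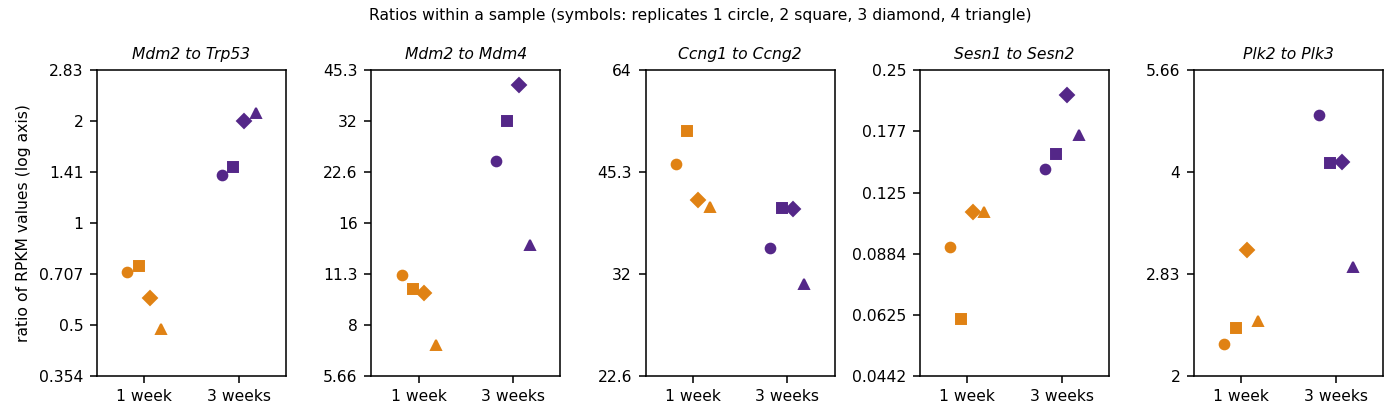
Ratio of the RPKM values of 2 genes within each sample, on a log axis to the base 2, for the 5 ratios at 1 week and 3 weeks, with a symbol for each replicate number. The ratio of Mdm2 to Trp53 lies between 0.487 and 0.748 at 1 week and between 1.39 and 2.12 at 3 weeks, and only the ratio of Plk2 to Plk3 shows overlap between the times.

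Of the 8 genes of cell cycle arrest, Ccng2 and Rprm rose and 6 did not pass the test. The called share of 25% lies beside 32.8% over all tested genes, and the median log2 fold change was 0.03. Ccng2 (ENSMUSG00000029385, chr5:93267257-93276231, plus strand) encodes cyclin G2, a cyclin that is high in cells that leave the cycle. It had 5.54, 4.15, 5.65 and 4.73 RPKM at 1 week and 8.04, 8.23, 10.2 and 10.1 RPKM at 3 weeks. All late samples were above all early samples, and the log2 fold change was 1.04 ± 0.17 (SE, edgeR adjusted p = 0.00215).

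Rprm (ENSMUSG00000075334, chr2:54084093-54085552, minus strand) encodes reprimo, a cytoplasmic protein that holds cells in G2. It had 0.468, 0.299, 0.334 and 0.116 RPKM at 1 week and 0.661, 0.833, 1.13 and 1.07 RPKM at 3 weeks, from 3 to 27 reads a sample. The groups did not overlap, but the level was the lowest among the genes that rose. The read minimum of the filter was reached by 1 of the 4 early and by all 4 late samples, so that Rprm entered the test through the group in which it was high, and without it 10 members were called higher. Rprm had a log2 fold change of 1.75 ± 0.42 (SE, edgeR adjusted p = 0.0121), and within the 3 preparations it was 1.58 with an edgeR adjusted p of 0.0991.

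Btg2, an antiproliferative gene of the early p53 response, had 33.8, 35.5, 20.8 and 17.2 RPKM at 1 week and 26.5, 25.0, 33.2 and 93.8 RPKM at 3 weeks. Its high mean at 3 weeks came from replicate 4 alone, and the other 3 replicates lay within the range of the early samples. The log2 fold change of 0.88 ± 0.44 missed the threshold (edgeR adjusted p = 0.155), and it was 0.28 without 3 weeks replicate 4. Gadd45a, whose product inhibits the CDK1 complex and takes part in DNA demethylation, had 56.3, 90.6, 27.4 and 32.4 RPKM at 1 week and 24.8 to 41.6 RPKM at 3 weeks. The early samples were more spread than the late ones, with replicate 2 the highest, and the log2 fold change was -0.47 ± 0.35, and -0.07 without that sample.

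Sfn encodes 14-3-3 sigma, a protein abundant in stratified epithelia that sequesters CDK1 in the cytoplasm, and by mean RPKM at 1 week it was the highest of the 37 genes. It had 1073, 976, 1505 and 1393 RPKM at 1 week and 1309, 1221, 973 and 478 RPKM at 3 weeks. Only 3 weeks replicate 4 was clearly below the rest, and the log2 fold change was -0.15 ± 0.31. A share of 47.1% of the Sfn reads was unique to the gene, so its level rests in part on reads that also match elsewhere.

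Plk2 and Plk3 are stress-induced kinases of the polo family. Plk2 lay at 137 to 244 RPKM at 1 week and at 103 to 231 at 3 weeks. Plk3 had 83.9, 104, 55.7 and 56.7 RPKM at 1 week and 38.9, 39.4, 25.0 and 79.6 RPKM at 3 weeks. Plk3 was below all early samples in the late replicates 1 to 3 and within their range in replicate 4. Its log2 fold change was -0.57 ± 0.33 (SE, edgeR adjusted p = 0.211), and without 3 weeks replicate 4 it was -0.95 (edgeR adjusted p = 0.0177). Exons of Plk3 overlap those of Tctex1d4 on the opposite strand, and reads of the pair may not have been told apart. The same limit holds for Gadd45a, Ei24, Rrm2b and Tigar, whose exons also overlap a gene of the opposite strand. Psrc1, a microtubule-associated protein, lay at 2.07 to 3.15 RPKM at 1 week and at 1.88 to 4.01 at 3 weeks.

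Of the 11 genes of cell death, 5 rose (Fas, Tnfrsf10b, Trp53inp1, Zmat3 and Apaf1), 45.5% against 15.7% of all tested genes, and the other 6 did not pass the test. By edgeR the 11 log2 fold changes were above 0, with a median of 0.34, where 6518 of all 12590 tested genes were above 0. On log2(RPKM + 0.1) those of Perp, Aen and Rps27l were below 0 by limma, and in the preparation block those of Perp, Ei24 and Rps27l. In that block Tnfrsf10b kept its call, and the edgeR adjusted p was 0.0774 for Fas, 0.0686 for Trp53inp1, 0.0570 for Zmat3 and 0.206 for Apaf1. By limma on either RPKM scale, Trp53inp1 alone of the 5 higher genes kept its call. In the replicate block Trp53inp1 and Tnfrsf10b kept theirs. The receptors Fas and Tnfrsf10b bind the ligands FASL and TRAIL and start caspase activation from the cell surface. Fas (ENSMUSG00000024778, chr19:34290659-34327770, plus strand) had 1.11, 1.70, 0.928 and 1.10 RPKM at 1 week and 1.34, 2.13, 2.40 and 3.74 RPKM at 3 weeks. Late replicate 1 lay below early replicate 2, so the groups overlapped. Fas had a log2 fold change of 1.14 ± 0.34 (SE, edgeR adjusted p = 0.0302), on 24 to 99 reads a sample. Its call was lost in 6 of the 8 analyses that left out 1 sample, those without 1 week replicates 1, 3 or 4 or without 3 weeks replicates 2, 3 or 4, with edgeR adjusted p up to 0.0803.

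Tnfrsf10b had 13.0, 15.3, 14.7 and 13.1 RPKM at 1 week and 28.2, 23.6, 12.0 and 24.2 RPKM at 3 weeks. In RPKM, late replicate 3 was the lowest of all 8 samples, and the other late replicates were above every early sample. After TMM normalization, Tnfrsf10b in late replicate 3 lay above early replicates 1, 3 and 4. Its log2 fold change was 0.79 ± 0.20 (SE, edgeR adjusted p = 0.0161). The call was lost without 1 week replicate 1 (edgeR adjusted p = 0.0620) or without 1 week replicate 4 (edgeR adjusted p = 0.0502). It was also lost on log2(RPKM + 0.1) (limma adjusted p = 0.111) and on log2(RPKM + 1) (limma adjusted p = 0.1). Eda2r, the receptor of ectodysplasin A2, lay at 3.31 to 6.60 RPKM at 1 week and at 4.44 to 6.86 at 3 weeks, and the log2 fold change was 0.34 ± 0.25.

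Trp53inp1, a stress protein that acts with p53 and in autophagy, had 15.4, 13.6, 12.9 and 11.7 RPKM at 1 week and 18.2, 18.7, 20.6 and 35.4 RPKM at 3 weeks. Every late sample was above every early sample, with replicate 4 far above the other late samples. Trp53inp1 had a log2 fold change of 0.95 ± 0.22 (SE, edgeR adjusted p = 0.00976), and 0.71 without that sample. Zmat3, an RNA-binding zinc finger protein that acts on splicing, lay at 8.21 to 10.5 RPKM at 1 week and at 8.35 to 15.1 at 3 weeks, and the log2 fold change was 0.47 ± 0.16 (SE, edgeR adjusted p = 0.0448). Apaf1, the scaffold of the apoptosome, lay at 4.23 to 5.06 RPKM at 1 week and at 4.91 to 5.64 at 3 weeks, and the log2 fold change was 0.36 ± 0.12 (SE, edgeR adjusted p = 0.0477). The calls for Zmat3 and Apaf1 were close to the threshold. They were lost in 15 and 14 of the 20 alternative analyses, among them 7 each that left out 1 sample, and the largest edgeR adjusted p among these was 0.116 for Zmat3 and 0.134 for Apaf1. Leaving out 3 weeks replicate 3 kept the call for Zmat3, and leaving out 3 weeks replicate 4 kept that for Apaf1.

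The most abundant genes of this group did not pass the test. Perp, a tetraspan protein of desmosomes that p63 also drives in epidermis, had 1127, 994, 1056 and 1165 RPKM at 1 week and 835, 1020, 1113 and 1198 RPKM at 3 weeks. The late range was wider than the early one and held it, and the log2 fold change was 0.11 ± 0.17 (SE, edgeR adjusted p = 0.669). Phlda3, an inhibitor of AKT at the membrane, ran from 159 to 210 RPKM and from 165 to 215 RPKM. Rps27l, a ribosomal protein paralog with the pair of decamers shown above, lay at 176 to 251 and then at 140 to 289 RPKM (log2 fold change 0.11 ± 0.26). Ei24, an endoplasmic reticulum protein of autophagy, had means of 36.7 ± 2.55 and 38.7 ± 8.03 RPKM (SD, n = 4), and the nuclease gene Aen lay at 13.6 to 17.4 and 12.2 to 16.8 RPKM. Shares of 52.8% of the Ei24 reads and 65.8% of the Aen reads were unique.

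None of the 5 genes of DNA repair and nucleotide supply passed the test by edgeR, and 2 of them, Polk and Rrm2b, had an unadjusted p under 0.05, as had 43.7% of all tested genes. The median log2 fold change was 0.31. Ddb2 and Xpc encode the damage sensors of global genome nucleotide excision repair. Ddb2 had 3.92, 4.08, 1.78 and 3.29 RPKM at 1 week and 1.26, 1.07, 1.20 and 3.16 RPKM at 3 weeks. Late replicates 1 to 3 were below all early samples and late replicate 4 was among them. Ddb2 had a log2 fold change of -0.83 ± 0.39 (SE, edgeR adjusted p = 0.135), and without that replicate it was -1.29 (edgeR adjusted p = 0.0119). Ddb2 shares exon sequence on the opposite strand with Acp2.

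Xpc lay at 2.79 to 3.76 RPKM at 1 week and at 1.97 to 2.89 at 3 weeks, and the log2 fold change was -0.21 ± 0.15. Ercc5, the XPG nuclease of the same pathway, ran from 3.48 to 5.66 RPKM and from 2.94 to 8.46 RPKM. Polk, a DNA polymerase that copies past damaged bases, had 5.38, 6.61, 4.69 and 4.54 RPKM at 1 week and 6.16, 6.43, 5.06 and 9.31 RPKM at 3 weeks. Late replicate 4 was again the highest. Polk had a log2 fold change of 0.50 ± 0.19 (SE, edgeR adjusted p = 0.0694), with an adjusted p of 0.0466 by DESeq2 and of 0.0496 by edgeR without 3 weeks replicate 3. Rrm2b, the p53-inducible subunit of ribonucleotide reductase that supplies nucleotides outside S phase, lay at 1.90 to 2.94 and then at 2.63 to 3.00 RPKM (log2 fold change 0.35 ± 0.15 SE, edgeR adjusted p = 0.106).

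Of the 8 genes of metabolism and stress, Ak1 and Ddit4 rose and Dram1 fell, 37.5% called beside 32.8% of all tested genes. Ak1 (ENSMUSG00000026817, chr2:32621758-32635058, plus strand) encodes adenylate kinase 1, which balances AMP, ADP and ATP. It had 16.3, 18.5, 22.7 and 14.5 RPKM at 1 week and 43.1, 42.8, 46.6 and 24.5 RPKM at 3 weeks. Late replicates 1 to 3 were close to each other, and replicate 4 lay just above the highest early sample. The mean went from 18 ± 3.53 to 39.3 ± 9.98 RPKM (SD, n = 4), and the log2 fold change of Ak1 was 1.30 ± 0.24 (SE, edgeR adjusted p = 0.00372).

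Dram1 (ENSMUSG00000020057, chr10:88322804-88379080, minus strand) encodes a lysosomal membrane protein that p53 induces and that promotes autophagy. It had 7.19, 8.61, 7.30 and 8.94 RPKM at 1 week and 2.57, 3.24, 3.64 and 2.64 RPKM at 3 weeks. The highest late sample was far below the lowest early sample. The mean went from 8.01 ± 0.893 to 3.02 ± 0.509 RPKM (SD, n = 4), and the log2 fold change of Dram1 was -1.23 ± 0.19 (SE, edgeR adjusted p = 0.00152). It ran from -1.41 to -1.14 when each sample in turn was left out.

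Ddit4, also called REDD1, restrains mTORC1 under stress and answers to hypoxia and glucocorticoids besides p53. It had 128, 118, 102 and 109 RPKM at 1 week and 140, 134, 143 and 138 RPKM at 3 weeks. The late samples were all higher and close together. For Ddit4 the log2 fold change was 0.45 ± 0.13 (SE, edgeR adjusted p = 0.0255). Its call was lost without 1 week replicate 2, 3 or 4 or without 3 weeks replicate 1, with an edgeR adjusted p of up to 0.0765. The preparation block (edgeR adjusted p = 0.145) and the replicate block (edgeR adjusted p = 0.0951) also lost it. So did edgeR without a filter on low counts (adjusted p = 0.0773) and limma on log2(RPKM + 0.1) (adjusted p = 0.0906).

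The sestrins did not pass the test singly. Sesn1 had 2.61, 2.00, 2.87 and 3.05 RPKM at 1 week and 2.60, 2.87, 3.20 and 5.16 RPKM at 3 weeks, and the log2 fold change was 0.55 ± 0.24 (SE, edgeR adjusted p = 0.108). Sesn2 had 28.4, 32.8, 25.6 and 27.2 RPKM at 1 week and 18.1, 18.4, 14.7 and 29.8 RPKM at 3 weeks, and the log2 fold change was -0.34 ± 0.19 (SE, edgeR adjusted p = 0.194). For both genes late replicate 4 was the highest late sample. Without it the log2 fold change of Sesn2 was -0.56 (edgeR adjusted p = 0.00652).

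Gdf15, a stress-induced cytokine of the TGF-beta family, had 2.30, 6.13, 0.489 and 0.704 RPKM at 1 week and 0.348, 0.394, 0.756 and 0.772 RPKM at 3 weeks. Early replicates 1 and 2 were above all other samples, and early replicates 3 and 4 lay within the late range. The log2 fold change of -1.91 ± 0.77 missed the threshold (edgeR adjusted p = 0.0851), while DESeq2 gave an adjusted p of 0.0293 and edgeR without 1 week replicate 3 gave 0.0421. Without 1 week replicate 2 it was -0.90 (edgeR adjusted p = 0.308), in the preparation block -0.91 (edgeR adjusted p = 0.332) and in the replicate block -1.35 (edgeR adjusted p = 0.298). Tigar, a phosphatase that lowers glycolytic flux, lay at 8.43 to 9.66 and then at 7.69 to 8.80 RPKM (log2 fold change 0.07 ± 0.11). Dcxr, the L-xylulose reductase gene, ran from 30.6 to 45.9 and from 26.3 to 44.6 RPKM.

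The late samples differed among themselves. Of the 4 samples at 3 weeks, replicate 4 was the highest for 18 and the lowest for 6 of the 37 genes, 64.9% in all, and over all tested genes it was the highest or lowest for 73.0%. Replicate 3 was at an end for 67.6% of the 37 genes and 69.8% of all genes. In log2 CPM, replicate 4 exceeded the median of the other 3 late samples by 1.80 for Btg2, 1.31 for Ddb2, 1.22 for Mdm4, 1.02 for Psrc1 and 1.01 for Plk3, and Sfn lay 1.37 below it. Without 3 weeks replicate 4, 9 of the 37 genes were called higher and 5 lower, the latter being Mdm4, Sesn2, Plk3, Ddb2 and Dram1. Of all genes tested in that analysis 17.8% were called higher and 18.7% lower, beside 24.3% and 13.5% of the members. Among the early samples, replicate 2 exceeded the median of the others by 3.09 for Gdf15 and 1.45 for Gadd45a.

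**Figure D4:**
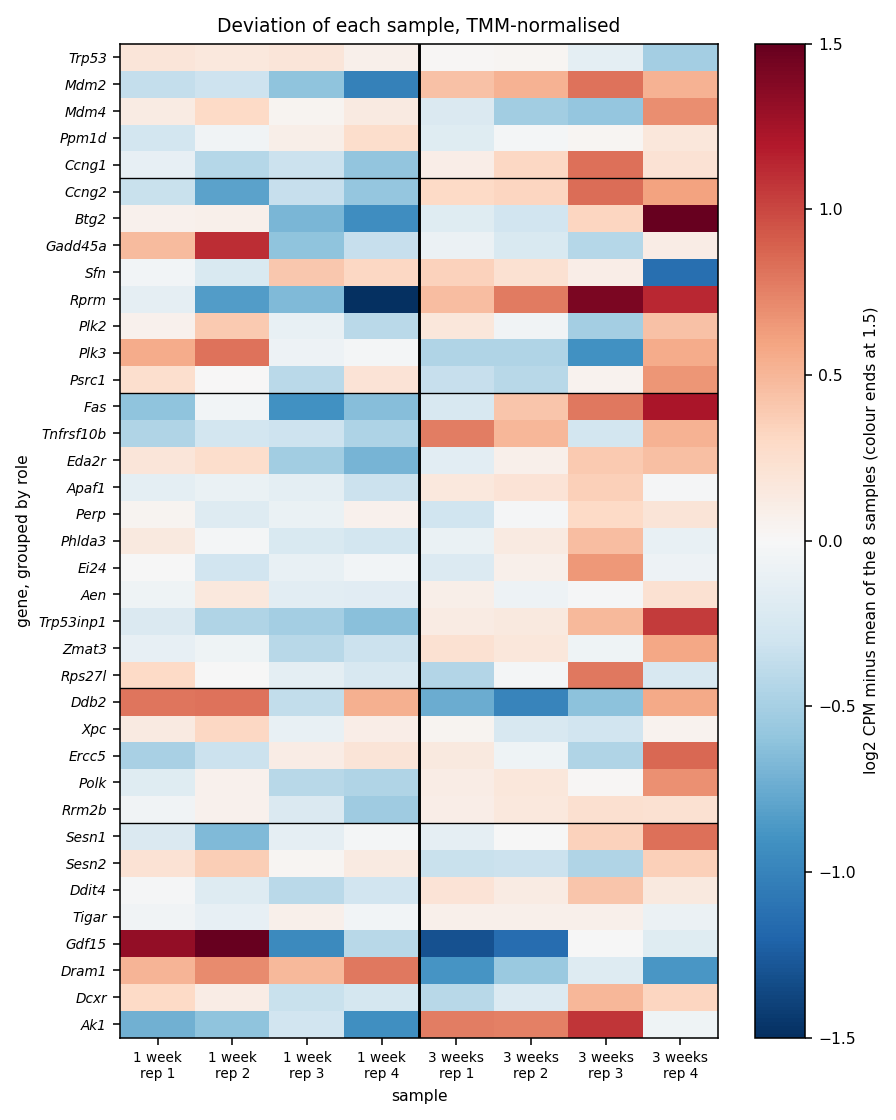
Deviation of each of the 8 samples from the mean of all samples in log2 CPM, normalised by TMM, for the 37 genes in rows grouped by role, with colours from low to high that end at 1.5. Mdm2 and Ccng2 are above their mean in all late samples and Dram1 below it, Ak1 is above it in late replicates 1 to 3, and 3 weeks replicate 4 stands apart for Btg2, Ddb2, Mdm4 and Sfn.

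Genes that act upstream of p53 were followed as a list of kinases, acetylases, ubiquitin ligases and binding partners. Of its 26 listed genes 25 were tested, 2 were called higher (Cdkn2a and Setd7) and 4 lower (Atr, Chek1, Chek2 and Kat5), with a median log2 fold change of -0.22. Without 3 weeks replicate 3, 7 were called lower, and of all genes tested in that analysis 20.8% were. By edgeR over all samples the called share was 24.0%, beside 32.8% over all tested genes. By limma on log2(RPKM + 0.1), 2 of the 25 were called higher and 8 lower. In that analysis 10.3% of all tested genes were called higher and 24.0% lower, so the share does not lie below the background in each analysis. Chek1, the kinase that answers to stalled replication forks, had 3.65, 3.02, 4.40 and 4.46 RPKM at 1 week and 0.336, 0.354, 0.210 and 0.103 RPKM at 3 weeks. All late samples were far below the early ones, and the log2 fold change of Chek1 was -3.77 ± 0.34 (SE, edgeR adjusted p = 0.000267).

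Atr, the kinase that activates CHEK1, went from 1.08, 0.970, 1.21 and 1.42 RPKM to 0.606, 0.525, 0.492 and 0.409 RPKM, a log2 fold change of -1.04 ± 0.18 (SE, edgeR adjusted p = 0.00285). The rise of Cdkn2a, whose locus also encodes the MDM2 inhibitor ARF, was 3.33 ± 0.48 on the log2 scale (SE, edgeR adjusted p = 0.00124), and the reads do not tell its transcripts apart. Trp63 had 20.8, 21.3, 28.6 and 34.1 RPKM at 1 week and 19.1, 18.9, 11.5 and 8.79 RPKM at 3 weeks, without overlap, and its log2 fold change of -0.69 ± 0.27 missed the threshold (edgeR adjusted p = 0.0809).

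A second list held 33 further p53 targets, of which 32 were tested. Here 10 were called higher (among them Cdkn1a, Bax, Pmaip1, Cdip1, Fuca1, Ier5, Ankra2, Csf1 and Cd82) and 4 lower (Polh, Atf3, Kitl and Siva1), 43.8% in all beside 32.8% of all tested genes, with a median log2 fold change of 0.10. The higher genes counted 5 with either block and 6 without 1 week replicate 4, and the lower genes 7 by DESeq2, by limma, and on total gene or unique reads. Over all tested genes the share called higher was 10.4% in either block and 10.8% without 1 week replicate 4, and the share called lower was 19.5% by DESeq2, 24.0% and 24.6% by limma, 17.1% on total gene reads and 18.7% on unique reads. Pmaip1, the BH3-only protein NOXA, had 132, 163, 69.4 and 58.4 RPKM at 1 week and 282, 272, 284 and 255 RPKM at 3 weeks. The late samples were all above the early ones and much less spread, and the log2 fold change was 1.54 ± 0.32 (SE, edgeR adjusted p = 0.00639). Cdkn1a, whose pair of decamers is shown above, rose by 0.87 ± 0.14 on the same scale. Csf1, the macrophage growth factor, had 17.4, 32.7, 27.3 and 14.6 RPKM at 1 week and 60.5, 41.7, 29.8 and 103 RPKM at 3 weeks, 2.83-fold higher by edgeR (adjusted p = 0.0151). Late replicate 3 of Csf1 was below the highest early sample. Cdip1, a pro-apoptotic membrane protein, rose from 1.59 ± 0.227 to 2.84 ± 0.387 RPKM (SD, n = 4), and its log2 fold change was 1.01 ± 0.17 (SE, edgeR adjusted p = 0.00285).

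Polh, a DNA polymerase that copies past ultraviolet damage, was among the genes that fell, from 4.46, 4.06, 4.94 and 5.95 RPKM to 1.56, 2.01, 1.61 and 2.08 RPKM, a log2 fold change of -1.26 ± 0.17 (SE, edgeR adjusted p = 0.000828). Atf3, a stress-induced transcription factor, had 29.9, 55.9, 21.5 and 21.6 RPKM at 1 week and 9.04, 7.12, 4.58 and 9.58 RPKM at 3 weeks. Its log2 fold change was -1.94 ± 0.34 (SE, edgeR adjusted p = 0.00289). Polh and Atf3 showed no overlap between the times. The stem cell factor gene Kitl fell with a log2 fold change of -2.15 ± 0.25 (SE, edgeR adjusted p = 0.000571).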

How the data were processed

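RNA-seq was done on mouse KCs after 1 week (4 samples) and 3 weeks (4 samples) in culture. The authors made poly(A) libraries, used version 12 of the CLC Genomics Workbench for alignment to GRCm38, and deposited 1 gene table per sample with counts of total exon, unique exon, intron and gene reads, not normalized, and RPKM values computed by the authors from the exon reads, the exon length and the mapped reads. The annotation release and whether reads were assigned by strand are not given in the sources used here. Of the exon reads, 81.6% to 84.7% were unique.

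Exon reads were filtered by filterByExpr, normalized by TMM and tested with edgeR 4.0.16 (glmQLFit and glmQLFTest, R 4.3.3) over 8 samples without a block, with Benjamini-Hochberg adjustment over 12590 genes and a threshold of 0.05. Standard errors were derived from the F statistics. RPKM values are shown per sample. Alternatives used limma 3.58.1 on log2(RPKM + 0.1) or log2(RPKM + 1), DESeq2 1.42.0, other read classes, filters and normalizations, blocks, and the omission of each sample. The analysis without mitochondrial genes was chosen after seeing the data. In simulated data of this size, 200 of 12479 genes were changed, and edgeR recovered 88.0% of 4-fold and 31.0% of 2-fold changes, with 9 false calls. In the real data 32.8% of the tested genes were called. The Benjamini-Hochberg adjustment depends on the share of changed genes, so the simulated recoveries do not give those of the real data. Python 3.11.15 and matplotlib 3.10.9 were used for the ratios, promoter windows and figures.

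The members and both gene lists were chosen with earlier results of these data known. The value of each sample was given for Trp53, Mdm2, Mdm4 and members with a call and a log2 fold change of at least 1 in size. Other members were given by range, or by the value of each sample where the spread or 1 sample bore on the comparison, a choice made after their values were seen. Of both lists, genes past the same limits were named with values, as were Cdkn1a, Cdkn2a and Trp63. The values of 1 gene of the further targets are not reported here. In the upstream list 1 further symbol was an older name of Cop1 and counted once. Coordinates are those of the deposited tables. Opposite-strand overlaps were read from GENCODE M21.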

Additional observations from a re-analysis of the deposited data

Results flagged for a closer look

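For 4 genes, 1 of the 4 samples at 3 weeks lay farther from the others than the 95% critical value of Dixon's ratio allows. In each case the sample was 3 weeks replicate 4. Trp53inp1 had 35.4 RPKM there, against 18.2 to 20.6 in the other 3 samples. Btg2 had 93.8 RPKM, against 25.0 to 33.2. Ddb2 had 3.16 RPKM, against 1.07 to 1.26. Ak1 had 24.5 RPKM, below the others at 42.8 to 46.6. The 37 genes at 2 times gave 74 such groups, of which chance would mark 3.7, at 1 in 20. What sets this sample apart was not tested.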

How the results depend on the processing

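Mdm2, Ccng2, Ak1 and Dram1 kept their direction and call in the 20 alternatives run. The count of members called higher (11) was 6 and 7 by limma on log2(RPKM + 0.1) and log2(RPKM + 1), 4 with the 3 preparations present at both times and their block, 6 with the replicate block, and 5 to 10 when each sample was left out, with 5 without 1 week replicate 4 and 7 without any other 1-week sample. The share of all tested genes called higher was 15.7%, and 10.3% and 9.94% by limma, 10.4% in either block and 10.8% to 17.8% with a sample left out. Members called lower (1) were 2 by DESeq2, 2 and 2 by limma, and 1 to 5 with a sample left out, with 2 without 1 week replicate 3 and 5 without 3 weeks replicate 4. Upstream genes called lower (4) were 8 and 8 by limma and 4 to 7 with a sample left out, most without 3 weeks replicate 3. Further targets called higher (10) were 5 with either block and 6 to 10 with a sample left out, least without 1 week replicate 4, and those called lower (4) were 7 by DESeq2, 7 and 7 by limma, 7 on total gene reads, 7 on unique reads and 3 to 6 with a sample left out. The Ccng1 to Ccng2 ratio on gene reads was -0.30. With a sample left out, the log2 ratio differences ran from 1.32 to 1.55 for Mdm2 to Trp53, 1.23 to 1.76 for Mdm2 to Mdm4, -0.36 to -0.23 for Ccng1 to Ccng2, 0.70 to 0.99 for Sesn1 to Sesn2 and 0.56 to 0.80 for Plk2 to Plk3, as values with no test.

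The direction changed only for genes that were not called. By limma on the 2 RPKM scales log2 fold changes were -0.14 and -0.14 for Plk2, -0.07 and -0.07 for Perp, -0.05 and -0.05 for Aen, -0.09 and -0.08 for Tigar, -0.18 and -0.13 for Psrc1, -0.06 and -0.06 for Dcxr, and -0.12 and -0.12 for Rps27l. In the preparation block they were -0.07 for Perp, -0.04 for Ei24, -0.00 for Tigar, 0.06 for Gadd45a, -0.07 for Psrc1, -0.03 for Dcxr and -0.24 for Rps27l. Without a filter Plk2 had -0.02 and Psrc1 -0.04. Psrc1 also had -0.02 with the replicate block, -0.00 on gene reads, -0.00 on unique reads and -0.01 with upper-quartile normalization. Leave-one-out ranges were -0.12 to 0.19 for Plk2, -0.00 to 0.21 for Perp, -0.28 to 0.10 for Sfn, -0.26 to 0.15 for Psrc1, -0.06 to 0.26 for Dcxr, -0.13 to 0.07 for Ppm1d and -0.24 to 0.25 for Rps27l. The cause was not tested.

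The replicate numbers join the same preparation for replicates 1 and 4 and different ones for replicates 2 and 3, and 1 week replicate 3 shares its preparation with 3 weeks replicate 2. Deviations from the group means correlated at -0.23, 0.20 and 0.25 across genes for the 3 shared preparations. For same-numbered replicates 2 and 3 they correlated at -0.15 and -0.15. Early and late samples of different preparations correlated at -0.285 to 0.416, a range that holds the values of the shared preparations. The replicate block therefore pairs the samples only in part, and it moved the count over all genes from 4127 to 2867. Rprm was not in the analysis of genes with at least 10 counts, and Sfn was not in that without the 20 most counted genes. Changes of 2-fold can be missed at 4 samples a group.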
